A study of Homo sapiens with 72 samples.

Results

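Nilotinib at 1000 nM was compared with the vehicle DMSO in U2OS cells, a human osteosarcoma line, by population RNA-seq. The comparison took the 3 wells whose labels give nilotinib (AMN107) at 1000 nM, and all 18 wells labelled DMSO, from 72 wells in the series. All 21 wells were plated in 24-well plates and harvested 12 h after addition of compound or DMSO. Poly(A)-selected, stranded TruSeq libraries were made from each well. The labels do not say that wells came from separate cultures, so p-values measure the spread between these wells, which may be technical. Nilotinib at 100 nM and 10000 nM, and miglitol, pyrazolanthrone and MK-2206 at 1000 nM (3 wells each), were used beside them for the same genes.

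Nilotinib is an inhibitor of the ABL1 tyrosine kinase, made against the BCR-ABL fusion of chronic myeloid leukemia. It also binds KIT, the PDGF receptors, the collagen receptors DDR1 and DDR2 and, more weakly, RAF kinases. RAF kinases stand above MEK and ERK in the growth factor pathway, whose output is seen in immediate early genes and in feedback genes such as those of Sprouty proteins and dual-specificity phosphatases. U2OS cells carry no BCR-ABL fusion. Miglitol inhibits intestinal alpha-glucosidases, pyrazolanthrone inhibits JNK kinases, and MK-2206 inhibits AKT kinases.

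The nilotinib libraries held 68.3, 35.9 and 36.4 mil expected counts in replicates 1, 2 and 3. DMSO libraries held 18.4 to 56.4 mil, other than DMSO replicate 10 with 460014 counts, where a single count is worth 2.17 CPM, the count per 1e6 counts of the library. This library was kept in the tests, but DMSO ranges below are those of the other 17 wells. The nilotinib wells differed in how expression depended on GC content. The GC slope, the change in log2 expression per 10 percentage points of transcript GC relative to the median DMSO well, was -0.40, 0.27 and -0.29 in replicates 1, 2 and 3, against -0.43 to 0.27 in DMSO wells. Replicates 1 and 3 had negative slopes, with GC-poor genes higher, and replicate 2 a positive slope, with GC-rich genes higher. Between nilotinib and DMSO wells the mean GC slope differed by -0.12 (two-sided exact permutation test, p = 0.411, adjusted p = 0.710 over 4 measures). Depth, fragment length and the share of mitochondrially encoded mRNA had adjusted p-values of 0.710 to 0.941 by the same exact test. Of 10 markers of the mesenchymal and osteoblast lineage, 9 had at least 1 TPM in DMSO wells. VIM stood at 1865 TPM and COL1A1 at 449 TPM, while COL1A2 was near 0 (0.094 TPM). ALPL and CD44 of this list were higher in nilotinib than in DMSO wells (edgeR, adjusted p = 0.00036 and 0.00087, log2(Fold Change) 1.06 and 0.79).

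In nilotinib wells the integrin gene ITGA2, the matricellular gene CCN2, the TGF-beta feedback gene PMEPA1, the growth factor receptor EGFR and the ERK feedback genes DUSP5 and SPRY2 rose. The proapoptotic gene BMF and the insulin receptor INSR fell. MK-2206 at 1000 nM also raised CCN2, PMEPA1, ITGA2 and DUSP5 against the same DMSO wells (edgeR, adjusted p under 0.05). Their log2(Fold Change) with MK-2206 was 1.52, 1.09, 1.37 and 0.83. BMF (-1.66, adjusted p = 0.065) and INSR (-0.02, adjusted p = 0.981) did not pass with MK-2206. For all 12 of the largest rises and all 12 of the largest falls the miglitol wells had a median between those of DMSO and nilotinib. These genes were picked for their change between the same nilotinib and DMSO wells, so this is a description. By edgeR 0 genes separated nilotinib from miglitol at 1000 nM, with 1012 at an unadjusted p-value under 0.05. DESeq2 gave 1 gene, and edgeR with GC slope as a covariate gave 12. By the contrast with miglitol the calls against DMSO are, as a whole, not shown to be particular to nilotinib. This contrast was fitted over wells of DMSO, nilotinib, miglitol, pyrazolanthrone and MK-2206 together. In a fit of 6 wells alone, nilotinib against miglitol gave 0 genes by edgeR, with 546 at an unadjusted p-value under 0.05. Nilotinib against DMSO replicates 1 to 3 alone also gave 0 genes, with 2793. Whether few wells account for the count of 0 against miglitol was not tested. A count of 0 does not show that nilotinib and miglitol act alike. The labels do not say whether DMSO wells were laid out or handled like compound wells, and a response to nilotinib and a difference in handling cannot be told apart in the contrast with DMSO. Over 18529 genes, edgeR's quasi-likelihood test called 466 genes (2.51%) raised and 266 (1.44%) lowered at an adjusted p-value under 0.05. A further fold criterion, more than doubled or under 0.5 of the DMSO level, left 138 raised (0.745%) and 71 lowered genes (0.383%). Over all genes tested the log2(Fold Change) had a median of 0.02. Scaling by library size only gave 114 raised and 92 lowered with the fold criterion, and 380 and 457 by adjusted p-value alone, and DESeq2 gave 575 and 579 by adjusted p-value alone, so the balance of rises and falls depended on scaling and tool. In bulk wells fewer cells of a kind and less RNA per cell cannot be told apart.

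**Figure D1:**
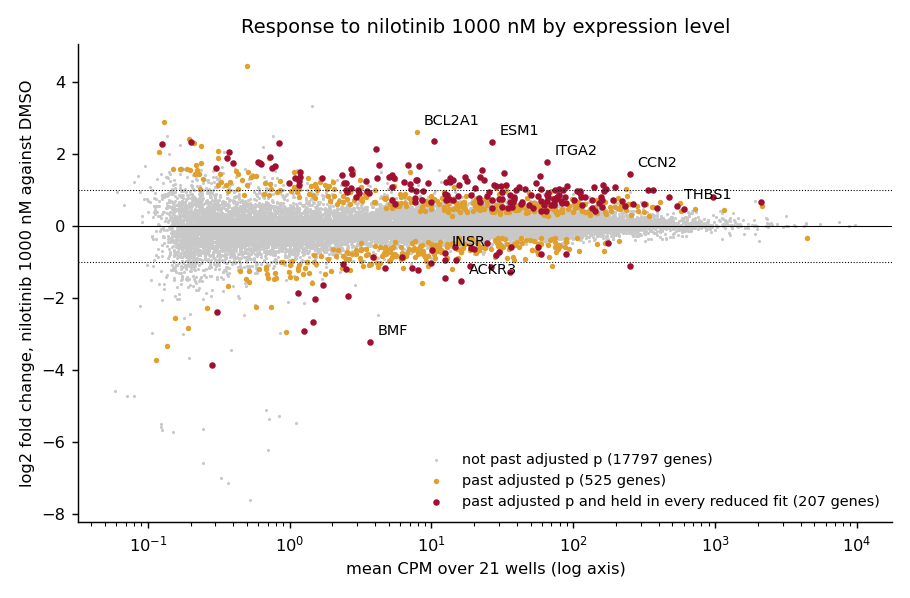
Log2(Fold Change) of 18529 genes in nilotinib 1000 nM against DMSO (y axis) by mean CPM over 21 wells (x axis, log scale). Grey points did not pass an adjusted p-value of 0.05, yellow points passed, and the 207 dark red points also passed in the same direction without each nilotinib well, without DMSO replicate 10 and with GC slope as a covariate. The dotted lines mark a log2(Fold Change) of 1 and -1.

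BMF, a BH3-only protein that promotes apoptosis, had the largest fall among the named genes. Its gene lies on chromosome 15 (GRCh38, chr15:40087890-40108892, minus strand). It stood at 0.176, 0.640 and 0.467 CPM in nilotinib replicates 1, 2 and 3, and at 1.53 to 7.42 CPM (median 4.40) in DMSO wells. The groups did not overlap, and the log2(Fold Change) was -3.23 (SE 0.52, edgeR adjusted p = 0.00043). RIPOR2, an inhibitor of RHOA, stood at 0.264, 0.111 and 0.165 CPM against 0.617 to 2.18 in DMSO, a log2(Fold Change) of -2.92 (SE 0.38). The forkhead factor FOXS1 stood at 0.176, 0.334 and 0.302 CPM against 0.852 to 3.60, a log2(Fold Change) of -2.66 (SE 0.41). ACKR3, a scavenging receptor for the chemokine CXCL12, was the most abundant of the 12 largest falls. It stood at 4.29, 6.21 and 7.53 CPM against 10.9 to 27.3 in DMSO, a log2(Fold Change) of -1.54 (SE 0.28).

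The other 8 of the 12 largest falls were the peptide hormone gene EDN2, the methyltransferase-like gene METTL7A, the zinc finger gene ZNF467, the glucose transporter SLC2A12, the zinc transporter SLC30A2, the T-box gene TBX10, SAMD11 and FAM13C. Their log2(Fold Change) lay between -2.02 (EDN2) and -1.33 (TBX10). For all 12 falls the 3 nilotinib wells lay below all 17 DMSO wells, where 437 of all genes tested (2.36%) did so. Among the 71 lowered genes with the fold criterion, 53 did so. The 12 falls were picked from these same wells, so their count is a description. In fits that left out a nilotinib well, 8 of the 12 falls stayed past an adjusted p-value of 0.05. Without replicate 1 it was 0.097 for SLC2A12, 0.092 for SLC30A2, 0.067 for FAM13C and 0.194 for TBX10, and TBX10 was also lost without replicate 2 or 3 (0.052 and 0.053). Among DMSO wells, replicate 18 was the lowest for 8 of the 12 genes. How often it was the lowest over all genes is not given here.

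ITGA2, the alpha subunit of a collagen-binding integrin (chr5:52989340-53094779, plus strand), stood at 215, 96.5 and 168 CPM in nilotinib wells and at 25.3 to 83.5 (median 51.3) in DMSO wells. All 3 nilotinib wells lay above the DMSO range, with a log2(Fold Change) of 1.76 (SE 0.27, adjusted p = 0.00031). ESM1, a secreted proteoglycan (chr5:54977867-55022671, minus strand), stood at 111, 75.4 and 70.7 CPM against 5.88 to 42.6 (median 17.2). Again the groups did not overlap, and the log2(Fold Change) was 2.33 (SE 0.39, adjusted p = 0.00071). The inflammasome sensor NLRP3 stood at 57.3, 51.2 and 44.9 CPM against 10.6 to 32.1, a log2(Fold Change) of 1.55 (SE 0.24). ANTXR2, a receptor for collagen and for anthrax toxin, stood at 91.6, 51.7 and 65.0 CPM against 14.7 to 40.7, a log2(Fold Change) of 1.47 (SE 0.23).

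BCL2A1, an antiapoptotic member of the BCL2 family, had the largest log2(Fold Change) of the named rises, 2.60 (SE 0.48, adjusted p = 0.0015), but its wells were spread. It stood at 45.6, 10.2 and 26.2 CPM in replicates 1, 2 and 3, against 0.958 to 12.7 in DMSO, so that replicate 2 lay inside the DMSO range. Without nilotinib replicate 1 the adjusted p-value was 0.092. The signaling regulator RGS4 showed the same pattern, with 25, 7.57 and 14.7 CPM against 2.89 to 9.40 in DMSO and an adjusted p-value of 0.256 without replicate 1. SCG5, a chaperone of a prohormone convertase, also overlapped in replicate 2 (24.4, 9.61 and 22.5 CPM against 2.67 to 10.3).

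The other 5 of the 12 largest rises were the keratin-associated protein gene KRTAP2-3, the Rac regulator ARHGAP22, the ephrin receptor EPHA4, the matrix metalloproteinase MMP10 and the synaptic adhesion gene LRFN5. Their log2(Fold Change) lay between 1.48 (LRFN5) and 2.36 (KRTAP2-3), and their wells did not overlap with DMSO. MMP10 did not pass without nilotinib replicate 1 (adjusted p = 0.147) or replicate 3 (0.141). KRTAP2-3 belongs to a family of near-identical neighboring genes between which RSEM divides reads, so its level is uncertain. For 9 of the 12 rises the 3 nilotinib wells lay above all 17 DMSO wells, where 314 of all genes tested (1.69%) did so. Among the 138 raised genes with the fold criterion, 97 did so. The 12 rises were picked from these same wells, so their count is a description. In fits that left out a nilotinib well, 9 of the 12 stayed past the threshold, all but BCL2A1, RGS4 and MMP10. DMSO replicate 18 was the highest DMSO well for 7 of the 12. How often it was the highest over all genes is not given here.

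**Figure D2:**
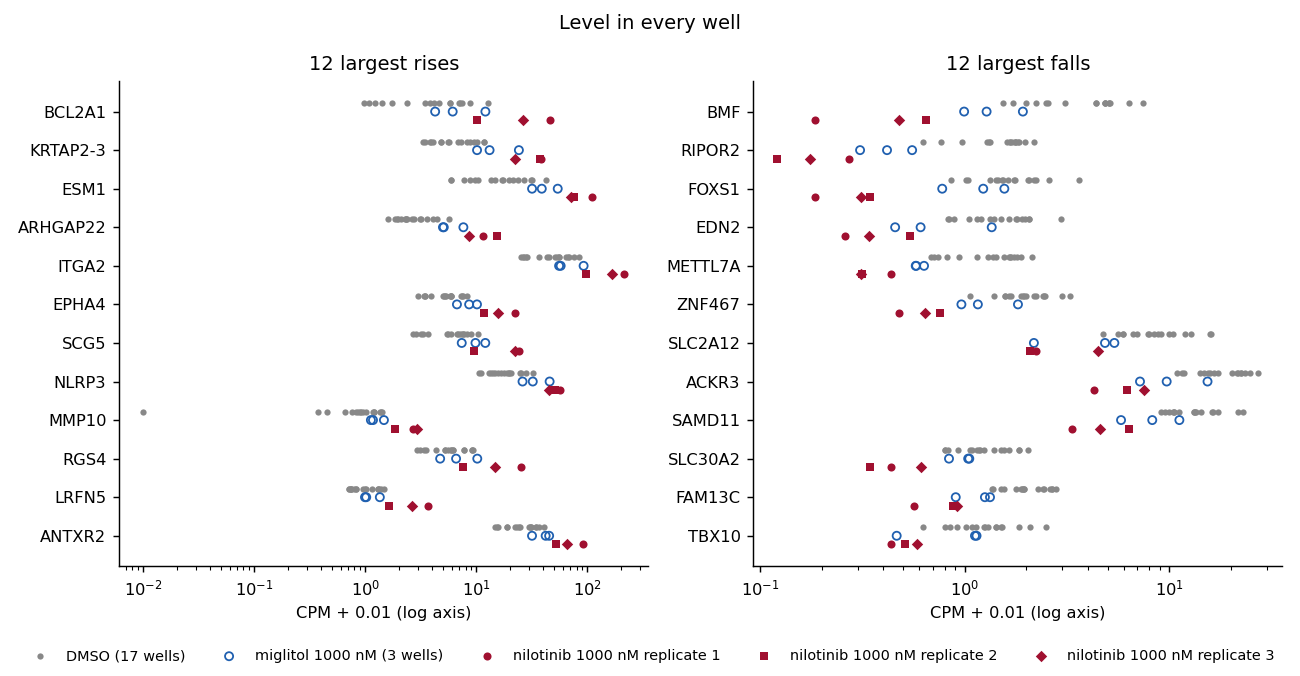
CPM plus 0.01 (x axis, log scale) of the 12 largest rises (left) and the 12 largest falls (right) in each of 17 DMSO wells (grey), 3 miglitol 1000 nM wells (blue circles) and 3 nilotinib 1000 nM wells (red, one marker shape per replicate). Nilotinib wells lay past all DMSO wells for 9 of 12 rises and 12 of 12 falls, and for all 24 genes the miglitol median lay between the DMSO and nilotinib medians. The genes were picked for their change between the same nilotinib and DMSO wells.

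The question of which calls held across wells of unlike GC slope was answered by fits without each nilotinib well, without DMSO replicate 10, and with GC slope as a covariate. Of the 732 genes past an adjusted p-value of 0.05, 250 passed in the same direction without nilotinib replicate 1, 509 without replicate 2 and 420 without replicate 3. All 732 passed with the GC slope as a covariate, and 731 passed without DMSO replicate 10. In every one of these fits 207 genes passed, 169 raised and 38 lowered. Of the 209 genes with the fold criterion, 95 passed in each, 74 raised and 21 lowered. The fewest genes passed without replicate 1, the deepest well and the one with the steepest negative GC slope. Without it, 81 genes were raised and 24 lowered with the fold criterion, and 210 and 44 by adjusted p-value alone.

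Fitting the GC slope moved the counts upward. With this covariate 1484 genes (8.01%) were raised and 885 (4.78%) lowered by adjusted p-value alone, and 152 and 92 with the fold criterion. In all genes tested with under 50% GC, the median log2 ratio to the DMSO median was 0.27, -0.33 and 0.19 in replicates 1, 2 and 3. In genes with at least 50% GC it was -0.26, 0.11 and -0.23. Among the 138 raised genes with the fold criterion, 66 had under 50% GC, and replicate 1 was the highest nilotinib well for 53 of them and replicate 2 for 5. Of the 68 with at least 50% GC, replicate 2 was the highest for 45 and replicate 1 for 20. All genes tested went the same way. Of 8947 with under 50% GC, replicate 1 was the highest for 5327 and replicate 2 for 947. Of 9185 with at least 50% GC, replicate 2 was the highest for 6907 and replicate 1 for 1041. The lowered genes were the mirror image of the raised, with replicate 1 lowest for 37 of the 52 GC-rich genes and replicate 2 lowest for 11 of the 17 GC-poor genes. Of the raised genes, 28 of the 66 GC-poor and 43 of the 68 GC-rich passed in every fit. Of the lowered genes, 7 of the 17 GC-poor and 13 of the 52 GC-rich did so. These counts are a description, with no test.

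**Figure D3:**
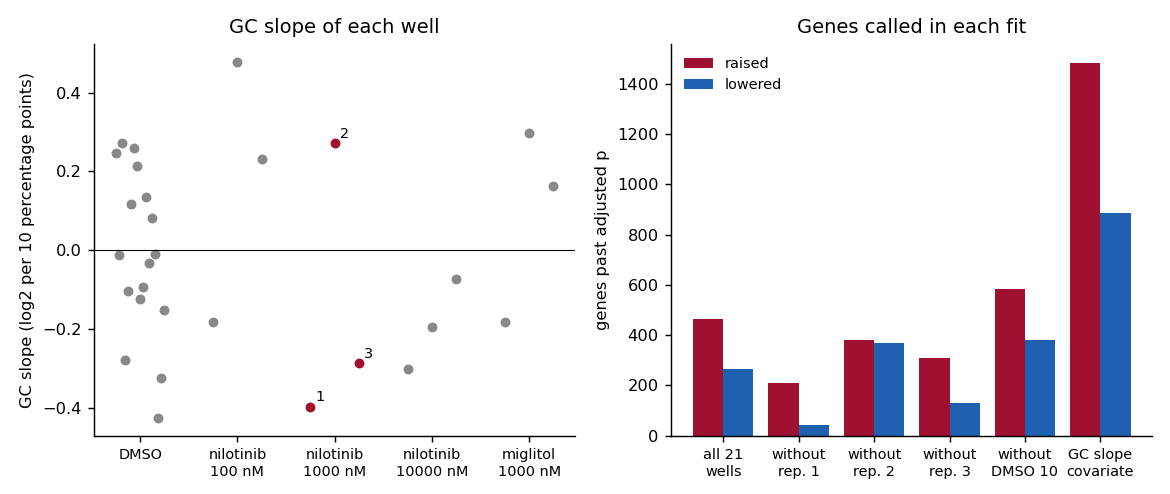
Left, GC slope of each well (log2 per 10 percentage points of GC) for DMSO (17 wells) and 4 compound groups of 3 wells, with nilotinib 1000 nM in red and numbered by replicate. Right, number of genes raised (red) and lowered (blue) at an adjusted p-value under 0.05 in 6 fits, which were 210 and 44 without replicate 1 and 1484 and 885 with the GC slope as a covariate.

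Further genes that passed in every fit are named here, chosen after their values were seen. GFPT2, an enzyme of hexosamine synthesis, had an adjusted p-value of 1.2e-05, with 67.8, 55.2 and 54.8 CPM against 22.4 to 38.1 in DMSO and a log2(Fold Change) of 1.12 (SE 0.12). EGFR, the receptor of epidermal growth factor, stood at 152, 123 and 132 CPM against 53 to 95.4, a log2(Fold Change) of 1.02 (SE 0.14). The chondrocyte factor SOX9 stood at 105, 117 and 78.9 CPM against 42.5 to 63.1, a log2(Fold Change) of 1.01 (SE 0.11). In each of these the groups did not overlap. The chromatin protein gene HMGA2 had a log2(Fold Change) of 1.26 (SE 0.18), and the integrin subunit ITGA6 of 1.14 (SE 0.20), with replicate 2 of ITGA6 (205 CPM) under the highest DMSO well (211 CPM). Among the falls, the microtubule protein gene MAP1A stood at 104, 124 and 132 CPM against 185 to 426 in DMSO, a log2(Fold Change) of -1.12 (SE 0.19). The Hedgehog receptor PTCH1 stood at 15.1, 17.2 and 18.2 CPM against 25 to 36.9, a log2(Fold Change) of -0.80 (SE 0.13).

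The kinases that nilotinib binds were the first of 23 gene lists. Of 17 listed kinases 16 were tested, and KIT was too low to be tested. Per transcript length, EPHA2 (62.1 TPM ± 9.19, SD, n = 17), ARAF (61.7 ± 3.38) and ABL1 (58.6 ± 5.74) had levels in DMSO wells that did not differ beyond their spread. ABL1 stood at 62.4 TPM ± 5.26 (SD, n = 3) in nilotinib wells, with a log2(Fold Change) of 0.07 (SE 0.12, adjusted p = 0.862). EPHA2, an ephrin receptor, was raised (log2(Fold Change) 0.52, SE 0.14, adjusted p = 0.040), and PDGFRA, a PDGF receptor, was lowered (-0.51, SE 0.14, adjusted p = 0.038). They were the 1 raised and 1 lowered member, beside 2.51% and 1.44% of all genes. Neither passed without nilotinib replicate 1 (adjusted p = 0.157 and 0.214). An edgeR fit with the GC slope as a covariate raised 2, EPHA2 and ABL2 (0.35, adjusted p = 0.0049), beside 8.01% of all genes. It lowered 4, beside 4.78%, namely PDGFRA, DDR2 (-0.51, adjusted p = 0.0026), DDR1 (-0.34, adjusted p = 0.0050) and EPHB4 (-0.20, adjusted p = 0.0499). Without the covariate the median of the 16 genes was -0.05, beside 0.02 for all genes tested.

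The output and feedback genes of the ERK pathway had a median log2(Fold Change) of 0.58, beside 0.53 for NF-kB targets and 0.02 for all genes. With the GC slope as a covariate these lists were at 0.56 and 0.58. Of 27 tested members, 15 were raised and none lowered by adjusted p-value, beside 2.51% and 1.44% of all genes, and all 27 had a log2(Fold Change) above 0. Under library-size scaling 26 of 27 lay above 0, with a median of 0.51. The count of raised members was 18 without DMSO replicate 10 (3.15% of all genes raised and 2.06% lowered). With the GC slope as a covariate it was 19 (8.01%), and without nilotinib replicates 1, 2 and 3 it was 11, 12 and 11. In the last 3 fits 210 of 18857, 381 of 18950 and 311 of 18971 genes were raised. Passing in every fit were 9 members, namely DUSP5, SPRY2, SPRED2, PHLDA1, CCND1, MYC, EPHA4, IL17RD and KLF6. In miglitol wells at 1000 nM, 26 of the 27 members also lay above 0 against DMSO, beside 7977 of the 18529 genes. For nilotinib against MK-2206 at 1000 nM the list had a median of 0.09, beside 0.04 for all genes.

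DUSP5, a phosphatase that acts on ERK in the nucleus, stood at 41, 30.2 and 30.2 CPM in nilotinib wells against 9.32 to 21.2 in DMSO, a log2(Fold Change) of 1.23 (SE 0.19, adjusted p = 0.00033). PHLDA1, a gene induced by growth factors, stood at 21, 12.9 and 10.8 CPM against 4.46 to 9.88, a log2(Fold Change) of 1.28 (SE 0.18, adjusted p = 0.00010). SPRY4, a Sprouty protein that restrains receptor signaling, stood at 6.50, 5.85 and 4.87 CPM against 1.41 to 4.12, a log2(Fold Change) of 1.27 (SE 0.25, adjusted p = 0.0033). All 3 genes were higher in every nilotinib well than in every DMSO well. EPHA4 did the same, with 22.3, 11.8 and 15.6 CPM against 2.99 to 8.24 and a log2(Fold Change) of 1.68 (SE 0.22). FOSL1, a component of AP-1 named here after its values were seen, overlapped with DMSO (118, 140 and 83.6 CPM against 40.6 to 90.5; log2(Fold Change) 0.97, SE 0.19, adjusted p = 0.0038).

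The EGR and FOS genes of the same list, which growth factors induce within minutes, did not pass. EGR1 had a log2(Fold Change) of 0.55 (SE 0.52), FOSB of 0.46 (SE 0.57), FOS of 0.23 (SE 0.49) and JUNB of 0.04 (SE 0.22). DUSP6, often used as a readout of ERK activity, was at 0.538 CPM in nilotinib and 0.440 CPM in DMSO on average, with a log2(Fold Change) of 0.28 (SE 0.26, adjusted p = 0.667). DUSP4 and SPRY1 were too low to be tested.

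**Figure D4:**
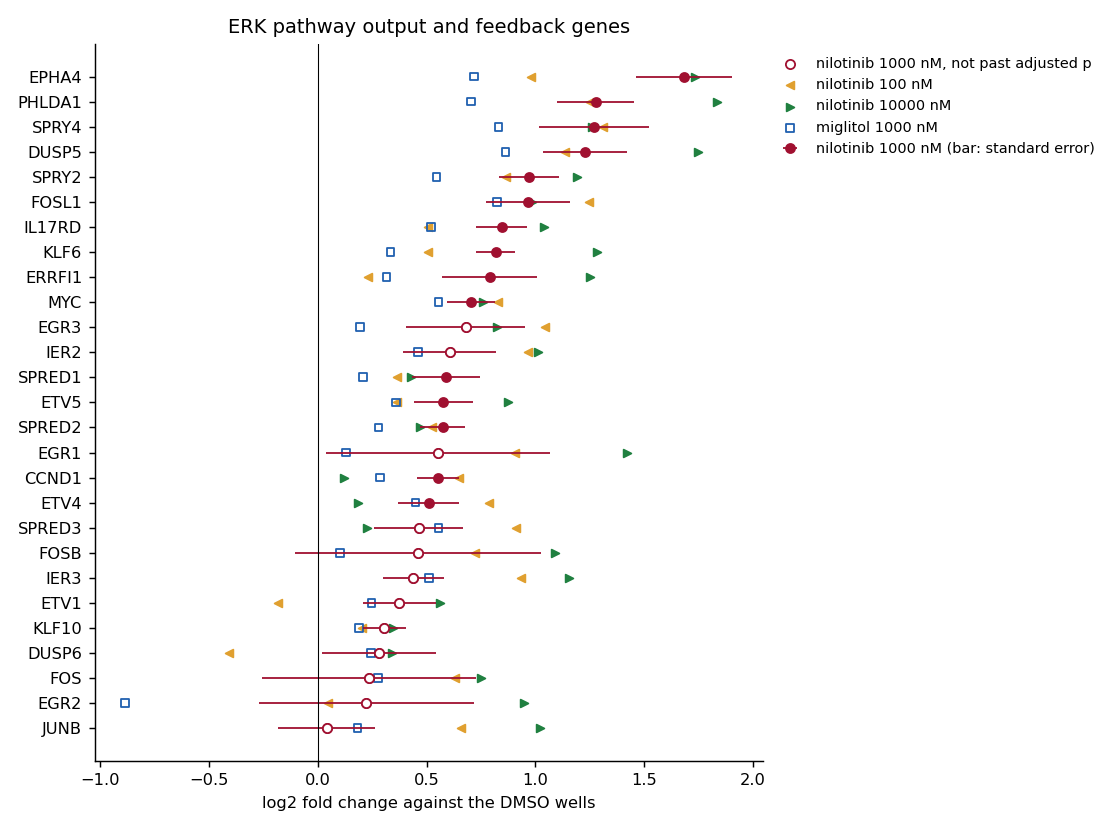
Log2(Fold Change) against DMSO (x axis) of the 27 tested ERK pathway output and feedback genes at nilotinib 1000 nM (red, bars are standard errors, filled where the adjusted p-value was under 0.05), nilotinib 100 nM (yellow), nilotinib 10000 nM (green) and miglitol 1000 nM (blue squares). All 27 lay above 0 at nilotinib 1000 nM and 26 at miglitol 1000 nM, with medians of 0.58 and 0.33. All groups share the same DMSO wells.

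Targets of actin signaling, YAP and TGF-beta moved in both directions. CCN2, a matricellular protein and a target of YAP and TGF-beta, stood at 649, 478 and 464 CPM in nilotinib wells against 138 to 285 (median 205) in DMSO. The groups did not overlap, and the log2(Fold Change) was 1.44 (SE 0.17, adjusted p = 2.7e-05). Of the 27 tested genes of the actin, SRF and YAP list, 4 were raised and 2 lowered, beside 2.51% and 1.44% of all genes, and with the GC slope as a covariate 7 and 4, beside 8.01% and 4.78%. Besides CCN2, THBS1 (0.55, SE 0.10), ANKRD1 (0.56, SE 0.13) and CCN1 (0.39, SE 0.10) were raised, and ARHGEF17 (-0.64, SE 0.17) and AJUBA (-0.43, SE 0.10) were lowered. CCN2 and THBS1 passed in every fit. Of 14 tested TGF-beta and BMP response genes, 4 were raised and 1 lowered, beside the same 2.51% and 1.44%. PMEPA1, a TGF-beta feedback gene, stood at 236, 324 and 248 CPM against 120 to 180, a log2(Fold Change) of 0.96 (SE 0.10, adjusted p = 1.2e-05). TGFBI, an extracellular matrix protein, had a log2(Fold Change) of 0.85 (SE 0.13), and the inhibitory SMAD6 of -1.19 (SE 0.23). PMEPA1, TGFBI and BHLHE40 were among the raised genes and passed in every fit, while SMAD6 had an adjusted p-value of 0.063 without nilotinib replicate 1. The median of the first list lay at 0 and that of the second at 0.01, beside 0.02 for all genes.

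The promoters of CCN2 and MMP10 are shown because they are named rises whose windows hold the motif of a transcription factor that acts downstream of YAP (TEAD) or of ERK (AP-1). Sequences are RefSeq promoters of GRCh38.p14, from 250 bases before to 50 bases after the start, printed along the gene's strand. Capitals mark GGAATG (TEAD) in CCN2, at 169, 104 and 95 bases before the start, and TGANTCA (AP-1) in MMP10, at 67 bases before the start.
CCN2 (chr6:131951323-131951622, minus strand): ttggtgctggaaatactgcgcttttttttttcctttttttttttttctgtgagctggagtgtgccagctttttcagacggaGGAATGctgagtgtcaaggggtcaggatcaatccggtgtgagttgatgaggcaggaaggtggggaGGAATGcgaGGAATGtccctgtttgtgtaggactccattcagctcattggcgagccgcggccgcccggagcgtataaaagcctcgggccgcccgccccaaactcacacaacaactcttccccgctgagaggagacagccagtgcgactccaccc
MMP10 (chr11:102780579-102780878, minus strand): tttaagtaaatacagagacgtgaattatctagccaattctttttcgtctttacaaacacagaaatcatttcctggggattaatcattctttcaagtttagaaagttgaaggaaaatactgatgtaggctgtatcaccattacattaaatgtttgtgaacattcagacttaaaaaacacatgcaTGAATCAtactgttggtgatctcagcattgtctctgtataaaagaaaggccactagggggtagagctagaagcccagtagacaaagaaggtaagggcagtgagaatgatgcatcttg

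Motifs were searched on both strands in the first promoter listed for each gene, which 98 of the 138 raised, 46 of the 71 lowered and 12377 of the genes tested had. TGANTCA was in 15 of 98 raised (15.3%) and 3 of 46 lowered promoters (6.52%), beside 5.03% of the genes tested and 7.76% of all 27305 promoters. GGAATG was in 14.3% of raised and 15.2% of lowered promoters, beside 11.1% of the genes tested and 14.05% of all promoters. The ETS motif CCGGAAG, bound by factors that ERK phosphorylates, was in 5 of 98 raised and 0 of 46 lowered promoters, beside 17.8% of the genes tested and 10.7% of all. The FOXO motif TGTTTAC was in 0 of 98 raised and 3 of 46 lowered promoters, beside 2.21% and 3.41%. These matches describe letters in a window and not sites that are bound.

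Genes that FOXO factors activate when AKT is inactive were on the low side. Of 17 tested members of this list, 4 were lowered and none raised, beside 1.44% and 2.51% of all genes, with a median log2(Fold Change) of -0.45 and 2 members above 0. INSR, the insulin receptor, stood at 7.41, 7.16 and 7.92 CPM against 11.3 to 18.1 in DMSO, a log2(Fold Change) of -0.75 (SE 0.13, adjusted p = 0.00084), and was the member that passed in every fit. The PI3K inhibitor PIK3IP1 (-0.85, SE 0.21), the receptor ERBB3 (-0.74, SE 0.18) and the nuclear receptor coregulator PNRC1 (-0.71, SE 0.19) were also lowered, each with the 3 nilotinib wells below all 17 DMSO wells. With the GC slope as a covariate 10 members were lowered and 1 raised, beside 4.78% and 8.01% of all genes. Without nilotinib replicate 1 the count was 1 lowered, where 44 of 18857 genes were. At 100 nM 7 members were lowered, where 3.58% of genes were. At 10000 nM the list went both ways, with 2 members lowered and 2 raised, where 6.39% and 7.97% of genes were.

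Of 17 tested NF-kB targets and secreted cytokines 2 were raised and none lowered, beside 2.51% and 1.44% of all genes, with a median log2(Fold Change) of 0.53. The count of raised members was 7 without DMSO replicate 10 and 7 with the GC slope as a covariate, beside 3.15% and 8.01% of all genes. It was 0, 3 and 1 without nilotinib replicates 1, 2 and 3, where 210, 381 and 311 of all genes were raised. The chemokine CCL20 stood at 1.29, 0.0835 and 1.40 CPM against 0.0563 to 0.441 in DMSO, so replicate 2 lay below the DMSO median of 0.204. Its log2(Fold Change) was 2.09 (SE 0.44, adjusted p = 0.0056). The cytokine LIF stood at 40.7, 44.5 and 30.9 CPM against 17.8 to 38.4, a log2(Fold Change) of 0.70 (SE 0.16). The chemokine CXCL8 did not pass, at 1.13 (SE 0.35, adjusted p = 0.079). At 10000 nM all 17 members were raised against DMSO, where 7.97% of genes were, with a median of 2.32.

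Lists of cell cycle, p53 and collagen genes are read against the 2.51% of all genes raised and the 1.44% lowered. The E2F factors E2F1 (-0.54, SE 0.15), E2F2 (-0.86, SE 0.20) and E2F8 (-0.47, SE 0.10) were the 3 lowered of 30 tested DNA replication and E2F target genes, with none raised and a median of -0.15, and none of the 3 passed without nilotinib replicate 1. With the GC slope as a covariate 6 of the 30 were lowered (4.78% of all genes). At 10000 nM 19 of the 30 were lowered, where 6.39% of genes were. None of 30 mitosis genes passed, with TOP2A at 0.21 (SE 0.29) and CDC20 at 0.06 (SE 0.14). Of 24 p53 targets, 3 were raised, the death receptor TNFRSF10B (0.39, SE 0.08), ZMAT3 (0.47, SE 0.13) and the nuclease AEN (0.40, SE 0.11). Of 26 tested collagen and collagen processing genes, COL6A3 (0.46, SE 0.10) and the collagenase MMP1 (1.12, SE 0.32, adjusted p = 0.0498) were raised and COL5A2 (-0.54, SE 0.15) was lowered. Without nilotinib replicate 1 no member of either list passed. With the GC slope as a covariate 4 p53 targets and 5 collagen genes were raised, beside 8.01% of all genes. In that fit 3 members of each list were lowered, beside 4.78% of all genes.

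The stress and metabolic lists are read against the same shares. Of 30 tested ATF4 and integrated stress response genes, TRIB3 (0.37, SE 0.10) was raised and DDIT4 (-0.50, SE 0.12) was lowered. The sterol regulator INSIG1 (-0.46, SE 0.13) was the call among 24 sterol genes, and the desaturase FADS2 (-0.52, SE 0.13) that among 10 fatty acid genes. Without nilotinib replicate 2, the counts were 3 and 2 lowered, where 368 of 18950 genes were. With the GC slope as a covariate, 4 sterol, 5 fatty acid and 5 NRF2 genes were lowered and 4 ATF4 genes raised, beside 4.78% and 8.01% of all genes. Without the covariate, no member passed among endoplasmic reticulum chaperones (16 tested), cytosolic heat shock genes (15), NRF2 (22), lysosomal (30), hypoxia (20), interferon-stimulated (19), LXR (7) and aryl hydrocarbon receptor genes (8), drug transporters and phase I enzymes (6) or mitochondrially encoded mRNAs (13). HSPA5, the main chaperone of the endoplasmic reticulum, had a log2(Fold Change) of -0.01 (SE 0.16), HSPA8 of 0.19 (SE 0.24) and FTL of -0.41 (SE 0.16).

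Markers of leukocytes, endothelium and hepatocytes were low, with exceptions, while all 5 neuronal markers had at least 1 TPM in DMSO wells. Of 7 leukocyte markers the lysosomal protein CD68 was above 1 TPM, and CD68 was raised (0.63, adjusted p = 0.0020) while CD3E and PTPRC were at 0.01 and 0.043 TPM and LYZ at 0 in nilotinib wells. The summed level of this list was 18.5 to 24.7 TPM in nilotinib and 10.8 to 15.7 in DMSO wells. Of 7 epithelial markers 5 were above 1 TPM, with a sum of 746 to 939 TPM against 552 to 735, carried by KRT8 and KRT18, and KRT18 was raised (0.53, adjusted p = 0.011). The hepatocyte list summed to 161 to 168 TPM against 114 to 143, carried by SERPINA1 (0.33, adjusted p = 0.072), with ALB at 0.017 TPM in nilotinib wells. Neuronal markers summed to 188 to 252 against 196 to 306 TPM, carried by TUBB3 (234 TPM in DMSO wells). Endothelial markers summed to 0.57 to 0.79 against 0.69 to 1.39 TPM, with no call in either list. The part of these levels in the results was not tested.

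The 1000 nM wells were also compared with those at the lower and the higher dose. In an edgeR fit over nilotinib at 3 doses and DMSO, no gene differed between 1000 nM and 100 nM at an adjusted p-value under 0.05, with 1733 genes at an unadjusted p-value under 0.05. DESeq2 called 2 genes, NEDD9 (log2(Fold Change) 0.67, adjusted p = 0.025) and ENSG00000278996 (0.95, adjusted p = 0.011), which has no symbol. Between 10000 nM and 1000 nM, 238 genes (1.27%) were higher and 28 (0.149%) lower at 10000 nM. For CCL20 the step from 1000 nM to 10000 nM passed (adjusted p = 1.9e-06), with a log2(Fold Change) against DMSO of 2.09 at 1000 nM and 7.62 at 10000 nM. The step also passed for LRFN5 (adjusted p = 0.00038), at 1.48 and 3.59, for SLC30A2 (adjusted p = 0.00095), at -1.44 and 0.63, and for RIPOR2 (adjusted p = 0.0036), at -2.92 and -0.73.

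Other named genes are given side by side, for doses that share their DMSO wells. CCN2 had a log2(Fold Change) against DMSO of 1.18, 1.44 and 1.41 at 100, 1000 and 10000 nM, and ESM1 of 2.15, 2.33 and 2.63. BMF had -2.51, -3.23 and -2.21. Of 27 ERK pathway genes, 17, 15 and 19 were raised at the 3 doses, where 5.5%, 2.51% and 7.97% of genes were. For the 138 raised genes the median was 1.04, 1.31 and 1.42, and for the 71 lowered genes -1.0, -1.29 and -0.88. THBS1 differed in sign, at 0.54, 0.55 and -0.33, and its step from 1000 nM to 10000 nM passed (adjusted p = 0.00029).

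The genes called for nilotinib were also read in wells with other compounds. For the 138 raised genes the median log2(Fold Change) against the same DMSO wells was 0.60 for miglitol, 0.46 for pyrazolanthrone and 0.64 for MK-2206 at 1000 nM, beside 1.31 for nilotinib. For the 71 lowered genes it was -0.63, -0.49 and -0.77, beside -1.29. These comparisons share their control wells, and the genes were chosen for their distance from those wells. How far this choice shifts other groups to the same side was not tested, so the medians are a description. By edgeR, miglitol and pyrazolanthrone at 1000 nM each had 0 genes past an adjusted p-value of 0.05 against DMSO, with 1563 and 1033 at an unadjusted p-value under 0.05, and MK-2206 had 223 raised (1.2%) and 59 lowered (0.318%). A fit of nilotinib against these wells was therefore made, after the data were seen, over DMSO and the 4 compounds at 1000 nM.

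Against miglitol at 1000 nM, 0 genes passed an adjusted p-value of 0.05 by edgeR, with 1012 at an unadjusted p-value under 0.05. DESeq2 called 1 gene, the interleukin 6 receptor IL6R, with 19.7, 18.6 and 17 CPM in nilotinib wells, 11.3 to 13.3 CPM in miglitol wells and a log2(Fold Change) of 0.61 (adjusted p = 0.0011). Of the 138 raised genes, 74 (53.6%) had an unadjusted p-value under 0.05 against miglitol, and 34 of the 71 lowered genes (47.9%), beside 5.42% of all genes tested. These genes were chosen for the contrast of the same nilotinib wells with DMSO, so the shares are a description. The median log2(Fold Change) against miglitol was 0.72 for the raised and -0.75 for the lowered genes.

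ESM1 stood at 38.9, 54.1 and 31.8 CPM in the miglitol wells, between DMSO (median 17.2) and nilotinib (70.7 to 111), with a log2(Fold Change) against miglitol of 1.03 (unadjusted p = 0.092, adjusted p = 0.786, edgeR). CCN2 stood at 313, 402 and 251 CPM in miglitol wells and 464 to 649 in nilotinib wells, with a log2(Fold Change) of 0.71 (adjusted p = 0.786). BMF stood at 1.27, 0.985 and 1.92 CPM in miglitol wells, with a log2(Fold Change) of -1.77 (adjusted p = 0.786). For 7 of the 12 largest rises and 6 of the 12 largest falls the nilotinib wells did not overlap the 3 miglitol wells. The share over all genes was not computed, and these genes were picked from the same nilotinib wells, so the counts are a description. The ERK pathway genes had a median of 0.33 for miglitol and 0.29 for nilotinib against miglitol, where 23 of 27 were above 0 and 5 had an unadjusted p-value under 0.05.

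Against pyrazolanthrone at 1000 nM, 0 genes passed by edgeR, with 961 at an unadjusted p-value under 0.05, and 32 by DESeq2. Against MK-2206 at 1000 nM, 4 genes passed by edgeR and 101 by DESeq2. IL6R (0.95, SE 0.13) and the receptor TNFRSF9 (1.52, SE 0.21) were higher with nilotinib, and the autophagy gene GABARAPL1 (-0.79, SE 0.11) and YPEL1 (-1.58, SE 0.27) were lower (0.0107% of genes in each direction). Against MK-2206, CCN2 was at -0.07, PMEPA1 at -0.11, THBS1 at -0.30, ITGA2 at 0.40 and DUSP5 at 0.41 (edgeR, each adjusted p at least 0.643). BMF (-1.54, adjusted p = 0.531) and INSR (-0.71, adjusted p = 0.093) did not pass against MK-2206 either. Against the 9 miglitol wells of all doses, 3 genes passed by edgeR, 2 higher (0.0111%) and 1 lower (0.00554%). FOXS1 was lower with nilotinib (-2.24, SE 0.32), and the acetylcholine receptor subunit CHRNA9 (0.99, SE 0.14) and the netrin receptor UNC5A (1.22, SE 0.17) were higher, each at an adjusted p-value of 0.048. All 3 genes were also past the threshold against DMSO in the same direction, and they are named because so few passed.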

How the data were processed

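The authors processed population RNA-seq with an RSEM workflow. RSEM, HTSeq, DESeq2 and the build GRCh38 are named in the submitters' processing notes, and versions and the annotation release are not given in the sources used here. The deposited expected counts are RSEM's estimated counts per gene, not normalized. The deposited TPM values were scaled by the authors' workflow to transcript length and a fixed sum, and deposited effective lengths, another column, were used to infer fragment length.

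Expected counts were rounded and tested with edgeR 4.0.16 under R 4.3.3 (TMM, filterByExpr with a minimum count of 10, glmQLFit, glmQLFTest, Benjamini-Hochberg), and DESeq2 1.42.0 as an alternative. SE is the log2 fold change divided by the square root of F. CPM is the expected count per 1e6 of the library's total. Symbols and positions came from GENCODE 44, which held 56104 of 60371 identifiers. GC slopes used 12617 protein-coding genes and a pseudocount of 1 CPM, and ratios by GC class a pseudocount of 0.1 CPM. Exact permutation tests of 3 against 18 wells can give no p under 0.0015. No wells of a group were duplicates, with a chi-square statistic of at least 3.38 per degree of freedom. Scripts were tested on simulated data.

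Named genes were protein-coding, past an adjusted p of 0.05, with a mean of at least 1 CPM and every nilotinib well past the DMSO mean in one direction (12 largest per direction), with at most 4 called members of each of 23 lists, or 2 abundant ones where none passed. Members and lists were chosen with earlier results of these data known. FPKM values were not used. Some members of the lists are not reported here by name.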

Additional observations from a re-analysis of the deposited data

How the results depend on the processing

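The 65 named genes past an adjusted p-value of 0.05 kept their direction in every alternative in which they were tested, and all 65 stayed past it with GC slope as a covariate, with a GC loess offset and without DMSO replicate 10. They stayed past it for 64 genes with DESeq2, 59 with library sizes only and 57 with no filter. They did so for 34, 54 and 52 genes without nilotinib replicates 1, 2 and 3, and for 28 of the 30 tested with at least 10 counts in every well. With the fold criterion, requiring at least 10 counts in every well, which DMSO replicate 10 makes strict (7779 genes tested), left 14 raised and 7 lowered genes, and by adjusted p-value alone 189 and 166. By adjusted p-value alone, a GC loess offset gave 1186 raised and 841 lowered genes, the GC slope covariate 1484 and 885, library sizes only 457 lowered and DESeq2 579 lowered. Leaving out a single well gave 81 to 146 raised and 24 to 114 lowered genes with the fold criterion, and 210 to 582 raised and 44 to 382 lowered by adjusted p-value alone. The lowest counts came without nilotinib replicate 1. Without nilotinib replicate 2, 114 genes were lowered with the fold criterion, without nilotinib replicate 3, 131 and 311 were lowered and raised by adjusted p-value alone, and without DMSO replicate 10, 582 were raised and 382 lowered.

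Replicate numbers did not pair the wells throughout. Same-numbered nilotinib 1000 nM and DMSO wells had correlations of their deviations of -0.37, -0.70 and -0.46. With nilotinib 100 nM they were 0.71, 0.88 and -0.35, with miglitol 0.77, 0.82 and -0.19, and with pyrazolanthrone 0.82, 0.80 and -0.38. In these groups replicates 1 and 2 went together and replicate 3 did not. With nilotinib 10000 nM they were 0.68, -0.05 and -0.23, and with MK-2206 -0.69, -0.88 and -0.58. No group gave 3 correlations over 0.1. Blocking on the replicate number in 6 wells (DMSO replicates 1 to 3) left 0 genes raised and 0 lowered (940 at an unadjusted p-value under 0.05). The same 6 wells with no block also gave 0 and 0 (2793), by edgeR. The block with the GC slope gave 60 raised and 39 lowered genes with the fold criterion, and 112 and 52 by adjusted p-value alone. Of the 64 named genes tested in these 6 wells, 0 stayed past the threshold with the block or without it, and 25 with the block and the GC slope. The step from 1000 nM to 10000 nM, 266 genes, gave 430 with DESeq2, 1433 with the GC slope covariate, 34 with the block, 110 in the same 6 wells without it, and 166 to 215 without a nilotinib 1000 nM well. The step from 100 nM gave 2 with DESeq2 and 0 in the other fits, the block included.

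In comparisons added after the data were seen, miglitol gave 12 genes with the GC slope covariate and 1 with DESeq2. It gave 718 with the block, where same-numbered wells went together for replicates 1 and 2 but not for replicate 3. Pyrazolanthrone gave 50 with the covariate and 32 with DESeq2. MK-2206 gave 209 and 101, 0 with the block and 0 in the 6 wells without it. The cause of these changes was not tested. The low depth of DMSO replicate 10 limits its values for genes under a few CPM, and 53 of the 138 raised and 26 of the 71 lowered genes averaged under 1 CPM.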
